A study of Homo sapiens with 8 samples.

Results

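The genes described here were the MYC network, the transcription factors that pair or compete with MYC for the partner MAX, together with PVT1, the long noncoding RNA gene that follows MYC on chromosome 8. The 10 members were taken by name, as MYC, MYCL, MYCN, MAX, MXI1, MXD1, MXD4, MNT, MLX and PVT1, out of 19795 genes measured (19794 protein-coding genes and PVT1). RNA polymerase II (RNAPII) ChIP-seq had been performed on MDA-MB-453, an established human breast cancer cell line, after 4 h with vehicle or with 600 nM CDDD11-8, an inhibitor of the kinase CDK9. Each treatment had 2 biological replicates, which came from independent passages of this single line. RNAPII was precipitated with the antibody CTD4H8, and peaks were called by the authors in each of the 4 ChIP libraries against a paired input. For each member the peak over the promoter (within 300 bp of the TSS, the transcription start site), its width, its summits, its rank within the library, and the share of the gene covered by peaks were measured at the longest isoform. Values of a treatment are given in the order replicate 1, replicate 2.

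MYC binds DNA as a pair with MAX at the E-box CACGTG and activates genes of growth and proliferation. MXD1, MXI1, MXD4 and MNT also pair with MAX, bind the same E-box and repress through SIN3 corepressors, and MLX is a MAX-like partner for the glucose-sensing factors MLXIP and MLXIPL and for some of the repressors. CDK9 is the kinase of P-TEFb, which releases RNAPII from its pause just after the TSS into the gene body, and MYC has a short-lived RNA whose supply depends on continued transcription.

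The vehicle libraries held 78306 and 57493 peaks, and the CDDD11-8 libraries held 25897 and 21842. The pileup at summits was in whole numbers in both vehicle libraries and in steps of 0.743 and 0.962 in the CDDD11-8 libraries, so the signal of the latter had been scaled before deposit. Fold enrichments were therefore compared only within a library, as percentiles. The lists carry no read totals, so depth is unknown beyond the minimum that the submitters aimed for, and the part of depth and scaling in the differences below was not tested beyond keeping in every library only the 21842 most significant peaks by q-value. Promoter peaks were found at 10214 and 10389 genes with vehicle and at 10663 and 10268 genes with CDDD11-8, and 9702 genes had one in all 4 libraries. All 8 luminal markers listed, such as GATA3 and FOXA1, had a promoter peak in all 4 libraries, and none of the 5 markers of other cells did, with 1 of them (COL1A1) having a peak in a single library. With 2 libraries against 2, the exact two-sided permutation test cannot give a p-value below 0.33, so no difference could pass 0.05. Each comparison instead states whether both CDDD11-8 libraries lay outside the range of both vehicle libraries, beside the percent of all 9702 genes for which this was so.

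The E-box was found in the promoters of MAX, MXD4, MNT and MLX, once in each, and these 4 genes also had an RNAPII promoter peak in every library. The search covered both strands of 300 bp either side of the TSS for the letters CACGTG, a sequence that reads the same on either strand. The motif was present in 12.8% of all 19795 promoters and in 15.5% of the promoters with a peak in all 4 libraries. It was absent from this window in MYC, MYCL, MYCN, MXI1, PVT1 and both MXD1 start sites examined. The stretches below, of 86 bases each, show the E-box in capitals at 4 promoters whose RNAPII peaks are described later. They were read 5′ to 3′ on the strand of the gene from GRCh37 (hg19), at chr14:65569251-65569336 (minus strand) for MAX, chr4:2264039-2264124 (minus) for MXD4, chr17:2304512-2304597 (minus) for MNT and chr17:40719018-40719103 (plus) for MLX. The first base of the motif lay at -181, -238, -193 and -22 bp from the TSS, respectively. A match of letters is a description and not evidence of a bound factor.
MAX: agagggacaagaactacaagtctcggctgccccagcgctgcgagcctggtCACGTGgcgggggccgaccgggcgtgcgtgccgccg
MXD4: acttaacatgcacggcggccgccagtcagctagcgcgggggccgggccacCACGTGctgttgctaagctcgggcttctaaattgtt
MNT: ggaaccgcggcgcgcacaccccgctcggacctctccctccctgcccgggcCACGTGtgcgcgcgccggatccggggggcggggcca
MLX: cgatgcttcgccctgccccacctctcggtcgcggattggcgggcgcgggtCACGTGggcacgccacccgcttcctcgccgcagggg

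MYC, the activator at the centre of the network, kept RNAPII at its promoter in every library and had fewer called peaks towards its end with CDDD11-8. Its promoter peak stood lower among the promoter peaks of each CDDD11-8 library than among those of each vehicle library. The gene lies at hg19 chromosome 8, 128748477 to 128755197 on the plus strand, and is 6.72 kb long. The promoter peak was 4658 and 4209 bp wide with vehicle and 5383 and 4191 bp wide with CDDD11-8, an overlap of the groups. Its highest summit was at +68 and +65 bp with vehicle and at +91 and +69 bp with CDDD11-8, all within 100 bp after the TSS. Over all genes the promoter peak was wider in both CDDD11-8 libraries for 64.4% and narrower for 9.42%, and MYC was in neither set.

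The rank of the MYC promoter peak separated the treatments. Among the promoter peaks of the 9702 genes, its fold enrichment stood at the 77.6th and 61.4th percentiles with vehicle and at the 33.8th and 21.9th with CDDD11-8. The group means were 69.5 ± 11.4 and 27.9 ± 8.42 (SD, n = 2 each), a difference of -41.7 percentile points with an exact permutation p of 0.333. Both CDDD11-8 libraries lay below both vehicle libraries, as was the case for 24.0% of genes, while 23.6% showed the opposite. Among all peaks of a library the percentiles were 97.1 and 93.7 with vehicle against 78.2 and 67.4 with CDDD11-8, but this rank was lower in both CDDD11-8 libraries for 42.2% of genes and higher for 9.04%, over lists of unequal length. Taking the highest summit inside the promoter window in place of the whole peak gave percentiles of 83.7 and 67.5 against 38.3 and 24.3.

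Along the MYC gene body, taken as the bases between +300 bp and 3 kb past the TES, the transcription end site, peaks covered 49.1% and 43.6% of bases with vehicle and 28.0% and 25.3% with CDDD11-8. The means were 46.3% ± 3.87 and 26.7% ± 1.95 (SD, n = 2 each), a difference of -19.7 percentage points (exact permutation p = 0.333). The CDDD11-8 values lay below both vehicle values, as for 44.9% of all genes, and 21.6% of genes had higher coverage in both. The part covered by the promoter peak itself was 30.7% and 22.3% with vehicle and 28.0% and 18.2% with CDDD11-8, which overlap. The part covered by peaks separate from it was 18.3% and 21.3% with vehicle and 0 and 7.06% with CDDD11-8, and this part was lower in both CDDD11-8 libraries for MYC as for 51.4% of genes.

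The separate peaks of the vehicle libraries included a pair around the end of MYC, in the last part of the gene and just beyond it. In vehicle replicate 1 they ran from +5329 to +6640 bp and from +6932 to +7347 bp, with fold enrichments of 3.82 and 3.03. In vehicle replicate 2 they ran from +5670 to +6293 bp and from +6597 to +7274 bp, with 3.15 and 2.55. No peak was called there in either CDDD11-8 library, where the last called base was at +2940 bp in replicate 1 and +2859 bp in replicate 2. Over the 5 kb after the TES, coverage was 8.32% and 11.1% with vehicle and 0 in both CDDD11-8 libraries, and 42.3% of genes had lower coverage there in both CDDD11-8 libraries and 5.18% higher. This difference at MYC was 0 when peaks were limited to a −log10 q of at least 5. The peaks at the end of MYC were modest for their lists, at the 60.9th and 27.9th percentiles of all peaks in vehicle replicate 1 and at the 33.0th and 9.18th in replicate 2.

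Their weakness bears on the comparison. With each library limited to 21842 peaks, MYC gene body coverage was 44.7% and 22.3% with vehicle and 28.0% and 25.3% with CDDD11-8, and the groups overlapped (difference -6.84 points, exact permutation p = 1.00). At that limit 27.7% of all genes still had lower coverage in both CDDD11-8 libraries. Of the peaks at the end of the gene, the one from +5329 to +6640 bp in vehicle replicate 1 was then kept, none was kept in vehicle replicate 2, and coverage of the 5 kb after the TES was 0 in all 4 libraries.

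**Figure D1:**
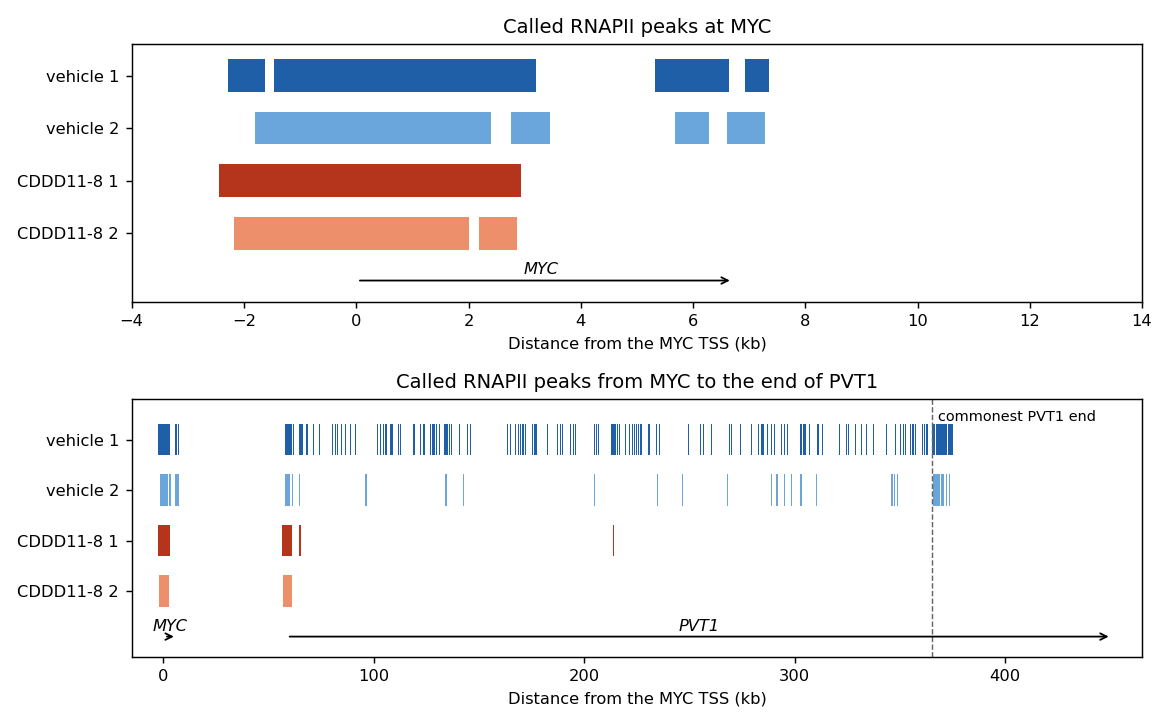
Called RNAPII peaks (bars) in the 4 libraries, against the distance in kb from the MYC TSS, at MYC (upper panel) and from MYC to the end of PVT1 (lower panel); arrows are the longest isoforms and the dashed line is the commonest annotated PVT1 end. The promoter peaks of MYC and PVT1 are present in all 4 libraries, whereas the peaks at the end of MYC and the 122 and 27 separate peaks over PVT1 in the vehicle libraries contrast with 2 and 0 in the CDDD11-8 libraries.

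Between the peaks at the end of MYC and the PVT1 promoter peak no peak was called in any library. This interval, 51.6 kb from the MYC TES to the PVT1 TSS, had coverage of 1.65% and 1.89% with vehicle and of 3.44% and 2.61% with CDDD11-8. The means were 1.77% ± 0.171 and 3.02% ± 0.588 (SD, n = 2 each), a difference of 1.25 points (exact permutation p = 0.333), and both CDDD11-8 libraries lay above both vehicle libraries. The bases counted belonged to the last MYC peak and the upstream edge of the PVT1 promoter peak in the vehicle libraries, and to the PVT1 promoter peak alone in the CDDD11-8 libraries. On the other side, the 100 kb before the MYC TSS had coverage of 2.13% and 1.81% with vehicle and of 2.44% and 2.17% with CDDD11-8. In 3 of the libraries all of it was the upstream part of the MYC promoter peak, and in vehicle replicate 1 a separate peak from -2293 to -1628 bp added to it. In the CDDD11-8 libraries that peak began at -2442 and -2175 bp and so reached the promoter of CASC11, a noncoding RNA gene that starts at -2264 bp on the other strand. Of 8 listed neighbours of MYC, 7 were found in the annotation. LRATD2 and PCAT1 shared 1 peak that was present in all 4 libraries, CASC11 had a promoter peak in all but vehicle replicate 2, and the other 4 had none in any library.

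PVT1, whose RNA is produced next to MYC and is often gained together with it in tumours, had scattered peaks between its start and its commonest annotated end with vehicle, far more of them in replicate 1 than in replicate 2, and almost none beyond its start with CDDD11-8. The longest isoform spans 393 kb, chromosome 8, 128806787 to 129199347 on the plus strand, and begins 58.3 kb after the MYC TSS. Its promoter peak was 3179 and 2452 bp wide with vehicle and 4591 and 4201 bp wide with CDDD11-8, wider in both CDDD11-8 libraries by a mean of 1580 bp, or 1.56-fold (exact permutation p = 0.333). Among promoter peaks its fold enrichment ranked low throughout, at the 14.7th and 4.07th percentiles with vehicle and at the 19.1st and 23.1st with CDDD11-8. PVT1 thus stood higher in both CDDD11-8 libraries, opposite to MYC.

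Coverage of the PVT1 gene body was 19.5% and 4.43% with vehicle and 0.931% and 0.647% with CDDD11-8. The means differed by -11.2 points (exact permutation p = 0.333), the SD was 10.7 with vehicle and 0.201 with CDDD11-8 (n = 2 each), and vehicle replicate 1 alone carried most of it. Without vehicle replicate 1 the difference was -3.64 points. Limiting each library to 21842 peaks gave 3.26% and 0.728% with vehicle and 0.839% and 0.647% with CDDD11-8, an overlap of the groups (difference -1.25 points, exact permutation p = 0.667).

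Along PVT1 the libraries differed by distance from the start. From 0.3 to 10 kb after the TSS coverage was 52.8% and 28.0% with vehicle and 34.2% and 26.4% with CDDD11-8, which overlap. Over the next stretch, to 100 kb, it was 21.1% and 1.77% with vehicle and 0 in both CDDD11-8 libraries. In the 100 kb after that it was 21.5% and 1.06% with vehicle against 0.361% and 0. With 21842 peaks per library these stretches were at 0.607% and 3.49% in vehicle replicate 1 and at 0 in vehicle replicate 2 and both CDDD11-8 libraries. The densest stretch with vehicle lay beyond the commonest annotated end, which 86 of the 190 PVT1 transcripts share and which is 307 kb from the TSS. In the 10 kb after that end, a window chosen after the values were seen, coverage was 87.8% and 59.2% with vehicle and 0 in both CDDD11-8 libraries, and with 21842 peaks per library it was 52.6% and 11.4% against 0 and 0. Between there and the longest annotated end, coverage was at most 0.249% in any library.

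MYCL and MYCN, the relatives of MYC best known from lung cancer and from neuroblastoma, had only small promoter peaks, and each had them under 1 treatment. MYCL (chromosome 1, 40361100 to 40367589, minus strand) had a peak of 1125 and 576 bp with CDDD11-8, and none with vehicle. A peak present in both libraries of CDDD11-8 and absent with vehicle was seen at 1.13% of all 19795 genes. MYCN (chromosome 2, 16080672 to 16087126, plus strand) had a peak of 461 and 867 bp with vehicle, and none with CDDD11-8, as for 0.788% of genes. These peaks ranked low, at the 32.2nd and 18.6th percentiles of all peaks for MYCL and at the 4.86th and 12.4th for MYCN. The peaks of MYCN were lost when each library was limited to 21842 peaks, whereas those of MYCL were kept. Neither gene had a separate peak in its body or coverage after its TES in any library.

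MAX, the obligate partner of MYC, had a wider promoter peak with CDDD11-8 and its highest summit lay upstream with vehicle and at the TSS with CDDD11-8. The longest isoform lies at chromosome 14, 65472892 to 65569105 on the minus strand. The promoter peak was 1831 and 2562 bp wide with vehicle and 3527 and 3497 bp with CDDD11-8, a mean of 1.60-fold wider (exact permutation p = 0.333). The highest summit was at -619 and -654 bp with vehicle and at +3 and -22 bp with CDDD11-8. Both CDDD11-8 summits were nearer the TSS, as for 22.9% of all genes, with 14.2% farther. Its percentile among promoter peaks was 9.65 and 16.5 with vehicle and 59.9 and 19.9 with CDDD11-8, higher in both CDDD11-8 libraries, though replicate 2 exceeded the vehicle values by little.

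Along the MAX gene body coverage was 13.8% and 3.28% with vehicle and 1.67% and 2.20% with CDDD11-8, lower in both CDDD11-8 libraries. The 18 separate peaks of vehicle replicate 1 lay partly where FNTB, on the other strand, overlaps MAX, and ChIP-seq cannot tell the strands apart. With 21842 peaks in each library the direction turned, to 1.48% and 1.13% with vehicle and 1.67% and 2.20% with CDDD11-8.

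**Figure D2:**
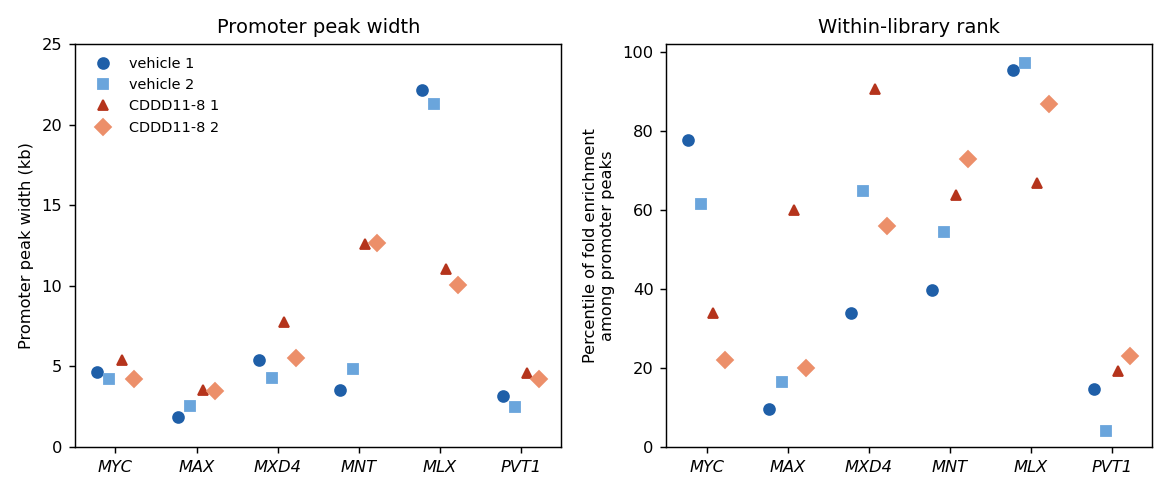
Width of the promoter peak in kb (left) and percentile of its fold enrichment among the promoter peaks of 9702 genes in the same library (right) for the 6 members with a promoter peak in all 4 libraries; each point is 1 library. The CDDD11-8 points lie above both vehicle points in width for MAX, MXD4, MNT and PVT1, and below them in percentile for MYC and MLX. The MLX percentiles with vehicle are those of a summit beside the PSMC3IP TSS. By the highest summit within 300 bp of the TSS the MLX libraries overlap.

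Among the repressors that compete for MAX, MXD4 and MNT had RNAPII at the promoter of the longest isoform in all 4 libraries, whereas MXD1 had it at another start site and MXI1 had no peak at the start of its longest isoform. MXD1, an antagonist that appears as cells differentiate, starts at chromosome 2, 70124820 on the plus strand in its longest isoform, where no promoter peak was called. At the canonical start, 17421 bp further downstream, a peak was present in every library. It was 3507 and 3827 bp wide with vehicle and 5020 and 5107 bp with CDDD11-8, wider in both CDDD11-8 libraries. As at MAX, its highest summit was upstream with vehicle, at -625 and -537 bp from that start, and close to it with CDDD11-8, at +35 and +13 bp. Gene body coverage of the longest isoform was 9.91% and 13.3% with vehicle and 11.6% and 12.5% with CDDD11-8, which overlap. This stretch includes the peak at the canonical start. With equal numbers of peaks per library coverage was 8.10% and 8.84% against 11.6% and 12.5%, higher in both CDDD11-8 libraries. For the canonical isoform, gene body coverage was 2.96% and 5.46% with vehicle and 6.93% and 7.83% with CDDD11-8, also higher in both. The promoter peak itself covered 2.96% and 1.80% against 6.93% and 6.80%. No peak lay in the 5 kb after the TES of the longest isoform.

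MXI1, also named MXD2, spans 79.8 kb of chromosome 10, 111967363 to 112047123 on the plus strand, and had no promoter peak in any library at this start. CDDD11-8 replicate 1 had a peak from +19657 to +20140 bp, with a fold enrichment of 3.78, at a cluster of other annotated start sites, and no other library had one there. In the vehicle libraries the called peaks lay near the gene end. Coverage of the gene body was 6.18% and 6.11% with vehicle and 1.70% and 1.30% with CDDD11-8, and coverage of the 5 kb after the TES was 63.7% and 48.7% with vehicle and 0 in both CDDD11-8 libraries. SMNDC1, transcribed towards MXI1 from the other strand, ends 83125 bp after the MXI1 TSS and starts at 97315 bp, so these peaks lie around the ends of both genes, and their source cannot be told apart. The SMNDC1 promoter was inside a peak in all 4 libraries. With 21842 peaks per library, coverage after the MXI1 TES was 26.1% and 41.2% with vehicle and remained 0 in both CDDD11-8 libraries.

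MXD4, on chromosome 4 at 2249159 to 2263836 on the minus strand, had a promoter peak of 5386 and 4290 bp with vehicle and of 7752 and 5537 bp with CDDD11-8. Its CDDD11-8 peaks both exceeded the vehicle peaks, by a mean of 1.37-fold (exact permutation p = 0.333), but replicate 2 exceeded the wider vehicle peak by little. Once peaks within 1 kb were merged the direction turned, since the vehicle peaks then joined the gene body peaks (difference -6649 bp). Gene body coverage was 68.4% and 88.2% with vehicle and 52.3% and 13.7% with CDDD11-8, lower in both CDDD11-8 libraries. With 21842 peaks per library it was 38.9% and 80.4% against 46.2% and 13.7%, which overlap. The CDDD11-8 replicates differed in gene body coverage more here than at any other member, with 8 separate peaks in replicate 1 and none in replicate 2. Coverage of the 5 kb after the TES was 73.5% and 75.6% with vehicle and 76.0% and 31.9% with CDDD11-8, which overlap, and the promoter of HAUS3 and POLN lies 19988 bp from the MXD4 TSS.

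MNT, the most widely expressed of the MAX-binding repressors, had the largest widening of the promoter peak among the members. The gene lies on chromosome 17 at 2287367 to 2304354 on the minus strand. The peak was 3545 and 4817 bp wide with vehicle and 12568 and 12639 bp with CDDD11-8, a mean of 3.01-fold wider (exact permutation p = 0.333). With CDDD11-8 it ran without a gap to +10398 and +10449 bp, and its highest summit was not at the TSS but at +7420 and +7480 bp, near an internal start site annotated at +7230 bp. In the vehicle libraries the same stretch held separate peaks, of which the strongest had summits at +8337 and +7571 bp.

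Coverage of the MNT gene body was 56.5% and 67.0% with vehicle and 60.4% and 51.6% with CDDD11-8, an overlap of the groups. Its composition did not overlap. Peaks separate from the promoter peak covered 46.3% and 55.6% with vehicle and 9.09% and 0 with CDDD11-8, while the promoter peak covered 10.2% and 11.4% with vehicle and 51.3% and 51.6% with CDDD11-8. Coverage of the 5 kb after the TES was 91.2% and 100% with vehicle and 37.7% and 0 with CDDD11-8, and with 21842 peaks per library it was 91.2% and 100% against 9.32% and 0. SGSM2, on the other strand, ends inside this window, 20006 bp from the MNT TSS, and peaks of convergent genes cannot be told apart there. By the whole peak, MNT ranked at the 39.6th and 54.5th percentiles of promoter peaks with vehicle and at the 63.8th and 72.9th with CDDD11-8. By the highest summit within 300 bp of the TSS the order was the opposite, with 42.3 and 60.4 against 26.2 and 20.6, since the summit inside the gene was then left out.

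**Figure D3:**
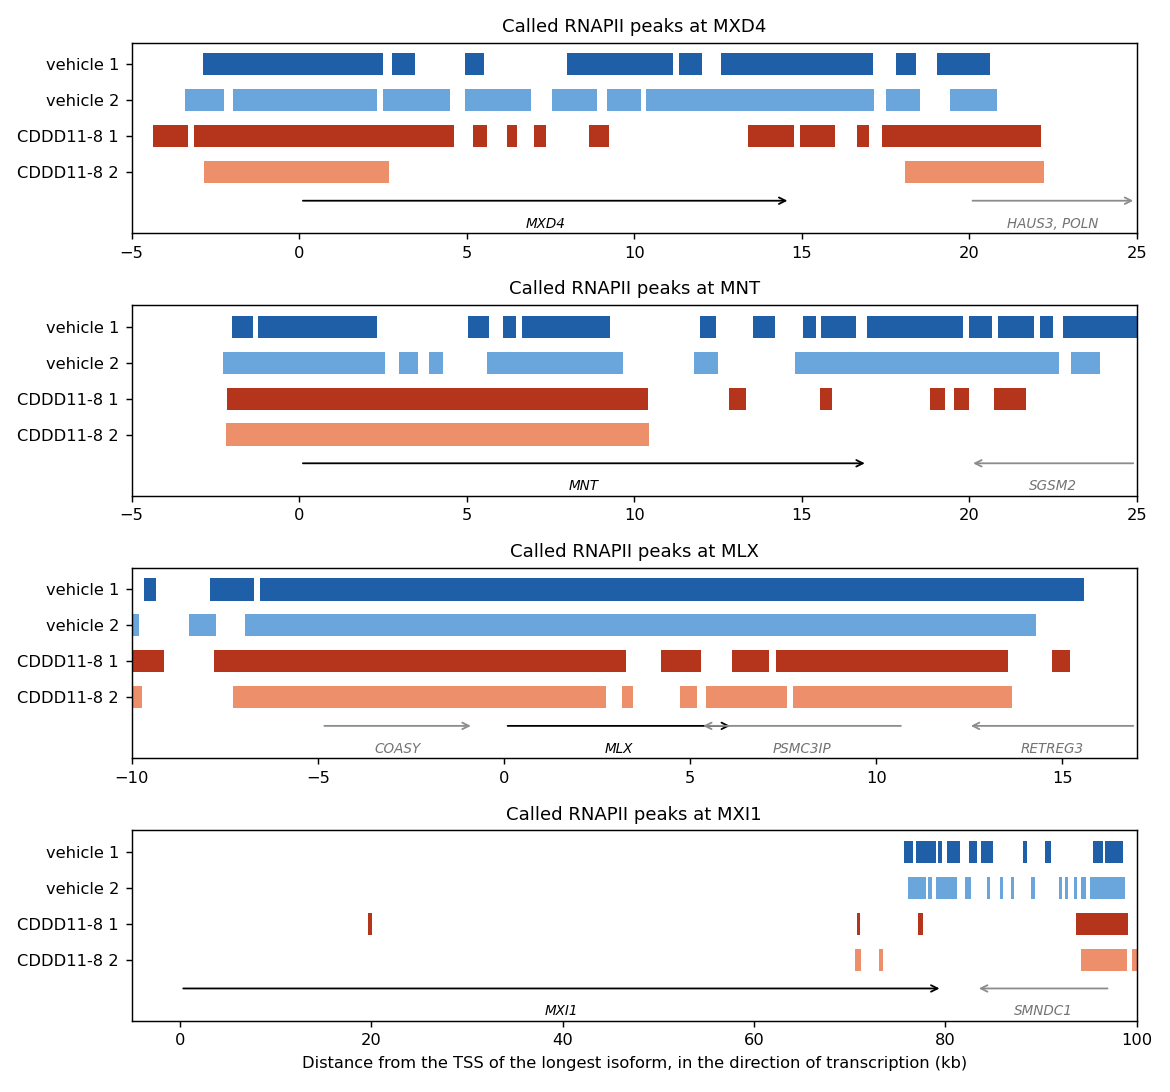
Called RNAPII peaks (bars) in the 4 libraries at MXD4, MNT, MLX and MXI1, against the distance in kb from the TSS in the direction of transcription; black arrows are the longest isoforms and grey arrows neighbouring genes. At MNT the 2 CDDD11-8 libraries have 1 peak from the promoter to beyond +10 kb and few or no peaks past the gene end, and at MLX the single vehicle peak over 3 genes is broken up with CDDD11-8.

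MLX, the MAX-like partner, lies among active neighbours on chromosome 17 at 40719090 to 40725257 on the plus strand, and its promoter peak was the only narrower one among the members. With vehicle 1 peak of 22143 and 21253 bp spanned MLX, COASY before it and PSMC3IP after it. With CDDD11-8 the peak at the MLX promoter was 11065 and 10018 bp wide, 0.486-fold of the vehicle mean (exact permutation p = 0.333), and ended at +3270 and +2728 bp. The highest summit of the joint vehicle peak was at +10668 and +10698 bp, beside the PSMC3IP TSS at +10759 bp, so the percentiles of 95.4 and 97.1 with vehicle do not describe MLX alone. With CDDD11-8 the highest summit was at +45 and +343 bp and the percentiles were 66.9 and 86.8. By the highest summit within 300 bp of the TSS they were 65.9 and 79.4 with vehicle and 72.4 and 37.4 with CDDD11-8, which overlap. Peaks covered 100% of the MLX gene body with vehicle, in either replicate, and 78.1% and 76.4% with CDDD11-8, the same values as with 21842 peaks per library. In the 5 kb after its TES coverage was 100% in both vehicle libraries and 96.3% and 96.8% with CDDD11-8, where the PSMC3IP promoter lies.

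**Figure D4:**
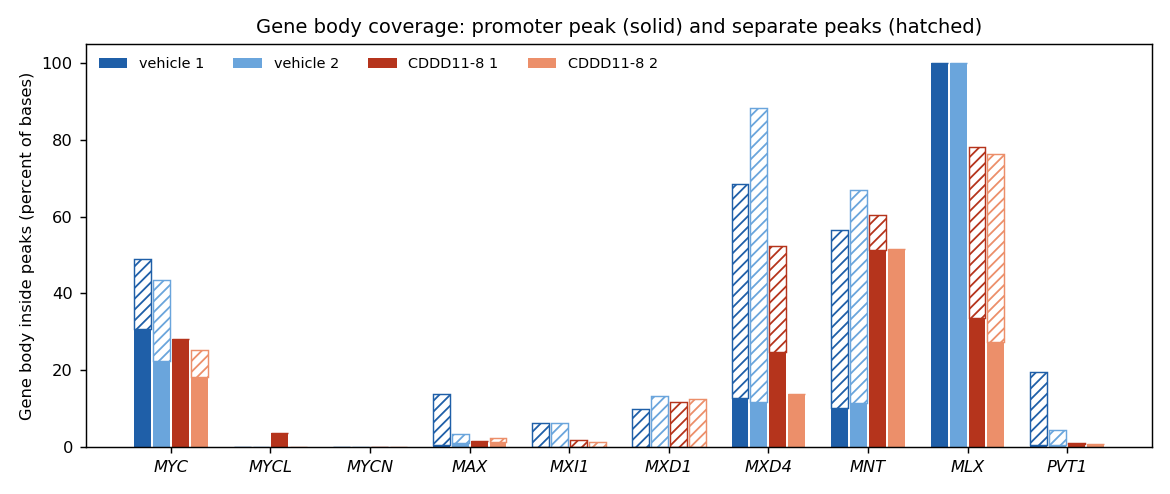
Percent of gene body bases inside called RNAPII peaks for each member and library, split into the part inside the promoter peak (solid) and the part inside separate peaks (hatched), with 1 bar per library. The hatched part is smaller with CDDD11-8 than with vehicle, without overlap of the libraries, for MYC, MAX, MXI1, MXD4, MNT and PVT1, and larger for MLX, whose vehicle promoter peak covers the whole gene.

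Read together, 6 of the 10 members had a promoter peak in all 4 libraries. Of these, 4 were wider in both CDDD11-8 libraries (MAX, MXD4, MNT and PVT1) and 1 was narrower (MLX), beside 64.4% and 9.42% of all genes. Gene body coverage was lower in both CDDD11-8 libraries for 5 of the 6 and higher for none, beside 44.9% and 21.6%. With 21842 peaks per library it was lower for 1 of the 6 (MLX), beside 27.7%, and higher for 1 (MAX). Separate peaks covered less for 5 of the 6, beside 51.4%, and with 21842 peaks per library for 3 (MXD4, MNT and PVT1), beside 27.5%. Coverage after the TES was lower for 3 of the 6 (MYC, MNT and MLX) and higher for none, beside 42.3% and 5.18%. With 21842 peaks per library it was also lower for 3, beside 25.7%, but these were MXD4, MNT and MLX, since MYC was then at 0 in every library. For MAX and PVT1, coverage was 0 in every library after the end of the longest isoform. In the 10 kb after the commonest PVT1 end it was 87.8% and 59.2% with vehicle and 0 in both CDDD11-8 libraries. That window was chosen after the values were seen. The percentile among all peaks was higher for 1 (PVT1) and lower for 2 (MYC and MLX), beside 9.04% and 42.2%. Among promoter peaks it was higher for 3 (MAX, MNT and PVT1) and lower for 2 (MYC and MLX), beside 23.6% and 24.0%. The ranking among promoter peaks was chosen after the data were seen. By the highest summit within 300 bp of the TSS, MNT was lower in both CDDD11-8 libraries and the MLX libraries overlapped. The highest summit was nearer the TSS for 2 (MAX and MLX) and farther for 2 (MYC and MNT), beside 22.9% and 14.2%. At MYC the positions were nearly equal, +68 and +65 bp with vehicle against +91 and +69 bp with CDDD11-8. At MLX the vehicle summits lay beside the PSMC3IP TSS. With 6 genes, none of these counts sets the members apart from genes in general, and the median gene had a promoter peak of 3035 and 3139 bp with vehicle and 4921 and 4379 bp with CDDD11-8.

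Of the other genes of the network, MXD3, MGA and MLXIP had a promoter peak in all 4 libraries and MLXIPL had none. MXD3, another MAX-binding repressor, had 100% coverage in every library within a promoter peak of 19392 and 16877 bp with vehicle and 15967 and 14799 bp with CDDD11-8, narrower in both CDDD11-8 libraries. MGA, a large MAX-binding repressor, had a promoter peak of 1772 and 2322 bp with vehicle and 3593 and 3438 bp with CDDD11-8, and its gene body coverage was 1.52% and 1.91% against 4.28% and 4.10%. MLXIP, the MLX partner also named MondoA, had a peak of 585 and 1670 bp with vehicle and 2899 and 2111 bp with CDDD11-8, and gene body coverage of 0.581% and 0.587% against 1.33% and 0.792%. Both had higher coverage in both CDDD11-8 libraries, unlike MYC.

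Among 22 listed MYC cofactors and regulators, 21 had a promoter peak in all 4 libraries, of which 18 were wider in both CDDD11-8 libraries and 1 was narrower, beside 64.4% and 9.42% of all genes. Their gene body coverage was lower for 12 and higher for 1, beside 44.9% and 21.6%, with a median difference of -7.58 points beside -1.97 over all genes. AURKA, the kinase that shields MYCN from degradation, had the largest difference, from 69.5% and 40.6% with vehicle to 13.9% and 13.4% with CDDD11-8. USP28, a deubiquitinase of MYC, was the 1 with higher coverage among these 21, 0.409% and 1.15% against 2.38% and 2.06%. Coverage after the TES was lower for 10 and higher for 4, beside 42.3% and 5.18%, with a median difference of -12.5 points beside -6.50 over all genes.

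Among 34 listed MYC targets, genes of ribosome production, metabolism and the cell cycle, 32 had a promoter peak in all 4 libraries, of which 19 were wider in both CDDD11-8 libraries and 6 were narrower, beside 64.4% and 9.42% of all genes. Gene body coverage was lower for 20 and higher for 4, beside 44.9% and 21.6%, with a median difference of -23.6 points beside -1.97. Coverage after the TES was lower for 21 and higher for none, beside 42.3% and 5.18%, with a median difference of -30.9 points beside -6.50. DNPH1, a nucleotide hydrolase, had the largest difference in gene body coverage, from 96.9% and 79.6% with vehicle to 22.0% and 6.42% with CDDD11-8. NPM1, the nucleolar protein nucleophosmin, followed with 93.9% and 93.2% against 26.5% and 18.5%. Gene body coverage of PCNA, the sliding clamp of DNA replication, went the other way, at 74.3% and 72.0% against 97.7% and 92.8%. That of ODC1, the first enzyme of polyamine synthesis, was 0 and 2.09% against 12.7% and 7.22%. Whether these lists differ from other genes was not tested. A fall in points cannot exceed the coverage with vehicle. The median of all genes for gene body coverage with vehicle was 18.9% and 13.8%, too low to fall by 23.6 points. The lists were not compared with genes of like coverage with vehicle, and neither list was examined with equal numbers of peaks per library.

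Among the 4010 genes compared, not all genes measured, those whose pattern was nearest to that of MYC were ATXN7L3B, LGALS1 and PPIF. Likeness was the Euclidean distance over 12 values, the promoter peak width, the gene body coverage and the coverage after the TES in each of 4 libraries, each scaled to ranks within the library. The distances were 0.220, 0.223 and 0.235, beside a median of 1.17 over the 4010 genes compared. Unlike at MYC, the promoter peak of ATXN7L3B was narrower in both CDDD11-8 libraries, at 6645 and 7412 bp against 4798 and 4333 bp. The widths at LGALS1 and PPIF overlapped, as at MYC. ATXN7L3B had gene body coverage of 62.8% and 61.2% with vehicle and 25.5% and 29.1% with CDDD11-8. PPIF, a mitochondrial cyclophilin, had 57.5% and 47.2% against 22.6% and 20.8%. All 3, like MYC, were short genes, LGALS1 (galectin-1) being the shortest at 4.17 kb and PPIF the longest at 7.87 kb. All 3 had coverage after the TES with vehicle and none with CDDD11-8. Gene body coverage and coverage after the TES were among the 12 values that chose these genes. Their likeness to MYC in both therefore follows from the choice.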

How the data were processed

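Per the methods, the authors used Bowtie 2 for alignment to GRCh37 and MACS2 for peaks of each library over its paired input, with no pooling of replicates. Tool versions were not given in the sources used here. The deposited pileup is a signal, the deposited fold enrichment is a ratio to the local background, and the deposited p-values and q-values are on the −log10 scale (lowest −log10 q 2.00). The 4 input libraries were not analysed here.

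All summits inside a called region counted as 1 peak, with the highest fold among them. Genes came from GENCODE release 44 mapped to GRCh37, longest isoform. The members, the gene lists and the rules for named genes (all members and other network genes, the 2 largest differences in each direction of the other lists where the groups did not overlap, and the 3 genes nearest to MYC) were chosen with earlier results of these data known. Tests were exact permutation tests over libraries. Replicates came from separate passages, and whether same-numbered libraries of the treatments shared a passage was not stated: their deviations from the group means correlated at -0.0144 for log2 width and -0.0732 for gene body coverage. Of the genes these rules name, 1 cofactor is not reported here. Of the listed markers, PECAM1 was not found in the annotation. On simulated peaks at 1000 long genes far from other genes, width, gene body coverage and the number of separate peaks were returned as planted for all 1000. Percentiles, summit positions, coverage after the TES and genes close to others were not part of that test. Alternatives covered the q-value limit, equal numbers of peaks, merging, isoform, windows and replicates left out. The software was matplotlib 3.10.9, scipy 1.17.1, pandas 2.3.3, numpy 2.4.6 and Python 3.11.15.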

Additional observations from a re-analysis of the deposited data

How the results depend on the processing

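Counts in this section are over all 10 members. They include MXI1, which had lower gene body coverage and lower coverage after the TES in both CDDD11-8 libraries. The peak lists differ in length by treatment, and limiting each library to 21842 peaks changed most. The members with a promoter peak then differed by 1.00 between treatments in place of 0 (CDDD11-8 more, as the MYCN peaks were lost), 3 in place of 1 ranked higher among all peaks in both CDDD11-8 libraries, and 2 in place of 6 had lower gene body coverage. The differences for MYC and PVT1 were then -6.84 and -1.25 points, with the groups overlapping, and MAX turned to 0.637 points. Merging peaks within 1 kb left 2 in place of 4 members with a wider promoter peak, and turned MXD4 to -6649 bp. Alternatives chosen after seeing the data moved the count ranked higher to 3 (among promoter peaks) and 2 (by the highest summit in the promoter window).

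Leaving out each replicate gave 0 to 0 for the difference in members with a promoter peak, 4 to 5 members with a wider peak, 1 to 3 ranked higher (3 without vehicle replicate 2 and without CDDD11-8 replicate 2), 6 to 8 with lower gene body coverage and 4 to 5 with lower coverage after the TES. It gave -22.4 to -17.0 points for MYC, 0.836 to 1.67 for the interval to PVT1 and -18.8 to -3.64 for PVT1. The replicate block, by same-numbered pairs, kept the differences of -19.7, 1.25 and -11.2 points (smallest p of 2 pairs 0.5) and changed no count. Of the members' single values under alternatives, 2 turned direction where the groups had been apart, and 17, over 7 results, changed sign where they had overlapped.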
